A study of Mus musculus with 12 samples.

Results

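The immediate early, heat shock and early cytokine genes are a group of 39 genes that blood monocytes can switch on soon after a stimulus or a handling stress. They were taken by name from the array's gene-level features, and all 39 listed genes were present, out of 23279 genes with a symbol. The genes were chosen with earlier results of these data known. Shares of the 39 are therefore set beside those of all genes as a description only. By role, 12 of them encode AP-1 and other immediate early transcription factors, 5 encode immediate early feedback proteins, 5 encode heat shock proteins and 3 encode feedback inhibitors or cofactors of NF-kB. A further 11 encode early cytokines and chemokines, and 3 encode an early enzyme or surface protein.

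RNA came from blood monocytes of C57BL/6 LyzCre mice aged 6 to 8 weeks, in 2 groups of 6 arrays each: samples labelled TRIM33 and samples labelled WT. The cells were sorted as CD11b+ CD115+ Ly6C-high, and the series addresses loss of the nuclear protein TRIM33 in mature myeloid cells. LyzCre mice carry the Cre recombinase at a lysozyme gene, so Cre acts in monocytes, macrophages and neutrophils. The labels give the strain as LyzCre for both groups and do not write out the Trim33 allele, and they name no stimulus. In each genotype 2 of the 6 arrays carry the word mix in their title (TRIM33 replicates 2 and 3, WT replicates 5 and 6), whose meaning the labels do not give. They are called the mixes here. Replicate numbers follow the order of deposit and pair nothing. Nothing in the labels says that the samples came from separate animals, so a p-value here speaks of the spread from array to array and no more, and that spread may be technical. All values are log2 levels, on which a difference of 1 unit is a 2-fold difference.

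Trim33 itself read 6.13 ± 0.0653 in TRIM33 and 6.92 ± 0.0794 in WT (SD, n = 6 each), and no TRIM33 array reached a WT array. The difference of -0.79 (SE 0.0671) had an adjusted p of 0.000637 in limma and p = 0.00216 in a two-sided exact permutation test over 924 assignments. Of the markers of Ly6C-high monocytes, Ly6c2 read 12.20 to 12.55 over all 12 arrays, Ccr2 11.42 to 11.86 and Csf1r, the CD115 gene, 9.73 to 11.09. Clustering of all features parted the 12 arrays into 2 sets of 6, each with 3 arrays of either genotype. TRIM33 replicates 1 to 3 and WT replicates 4 to 6 carried Y-linked transcripts, with Eif2s3y between 8.09 and 8.47, and are called the Y set. TRIM33 replicates 4 to 6 and WT replicates 1 to 3 carried Xist, between 9.01 and 10.2, and are called the Xist set. Cell cycle genes averaged 4.69 to 6.12 in the Y set and 9.84 to 9.93 in the Xist set. The Xist set also read high for Mpo (10.91 to 11.55, against 4.74 to 5.15 in the Y set) and Elane (10.27 to 10.77, against 3.82 to 5.56), granule enzyme genes of myeloid precursors, and lower for Csf1r (9.73 to 10.12, against 10.88 to 11.09). All 4 mixes lay in the Y set, so only TRIM33 replicate 1 and WT replicate 4 were Y-set arrays that were not mixes. A difference between mixes and the other 8 arrays therefore holds part of the difference between the sets, and each such comparison is given without a block and blocked by array set. With the block, the value is the 4 mixes against those 2 arrays, with the spread taken over all 12.

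Immediate early genes are transcribed within minutes of a signal, without new protein synthesis. MAP kinases act through serum response factor at CArG boxes and through CREB at cyclic AMP response elements. Heat shock factor 1 drives chaperone genes from repeats of a short element, and NF-kB drives many cytokine genes together with the genes that shut NF-kB off again. In leukocytes the same genes are known to rise while tissue is dissociated or cells are sorted, so their level can report handling as well as activation in the animal.

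The promoters of several of these genes carry the binding words of those factors, and the sequences show which word each gene has. RefSeq promoter sequences of assembly GRCm38.p6 were held for 30 of the 39 genes, and the 250 bases before the start of each were searched on both strands. Each line below gives the 150 bases before the gene's start, 5′ to 3′ on the gene's strand. The chemokine genes Cxcl3, Cxcl1 and Cxcl2 are neighbours on chromosome 5. Cxcl3 and Cxcl1 had means below the median of all genes. All are shown because they share a word while their levels varied over the arrays to different degrees. Their windows are chr5:90785951-90786100 for Cxcl3, chr5:90891095-90891244 for Cxcl1 and chr5:90903749-90903898 for Cxcl2, all on the plus strand. That of Nfkbia, which encodes the inhibitor IkB-alpha, is chr12:55492648-55492797 on the minus strand. Capitals mark the NF-kB word, which is GGGA, then any base, then TTTCC, and which in Nfkbia lies on the opposite strand and is read there as its reverse complement.
Cxcl3: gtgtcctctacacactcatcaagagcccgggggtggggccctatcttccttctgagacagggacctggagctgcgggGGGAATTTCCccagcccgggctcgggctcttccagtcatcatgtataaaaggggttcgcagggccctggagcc
Cxcl1: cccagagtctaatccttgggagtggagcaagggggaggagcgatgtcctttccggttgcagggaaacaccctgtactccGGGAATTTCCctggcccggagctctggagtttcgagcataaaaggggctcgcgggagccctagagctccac
Cxcl2: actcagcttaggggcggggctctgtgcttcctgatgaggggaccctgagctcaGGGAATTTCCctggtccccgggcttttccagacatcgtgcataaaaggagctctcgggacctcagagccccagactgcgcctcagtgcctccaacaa
Nfkbia: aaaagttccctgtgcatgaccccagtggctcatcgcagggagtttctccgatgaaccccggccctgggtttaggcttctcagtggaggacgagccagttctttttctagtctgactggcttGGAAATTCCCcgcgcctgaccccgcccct
The word starts 73 bases before the start of Cxcl3, 71 before that of Cxcl1, 97 before that of Cxcl2 and 29 before that of Nfkbia. It was found in 5 of the 30 windows, the fifth being that of Il6, and in 0.356% of 32851 windows of the same length.

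The heat shock genes Hspa1a and Hspa1b lie near each other on chromosome 17, and are shown because their promoters are nearly the same sequence. Their windows are chr17:34972157-34972306 and chr17:34959239-34959388, both on the minus strand. Capitals mark GAANNTTC, a pair of inverted heat shock units.
Hspa1a: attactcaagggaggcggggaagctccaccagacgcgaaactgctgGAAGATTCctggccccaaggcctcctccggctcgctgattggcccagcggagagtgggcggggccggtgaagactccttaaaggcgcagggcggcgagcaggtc
Hspa1b: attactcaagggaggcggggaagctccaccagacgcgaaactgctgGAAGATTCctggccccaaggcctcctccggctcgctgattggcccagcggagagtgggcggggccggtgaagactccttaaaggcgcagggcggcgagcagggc
The searched windows of the pair were identical at 247 of 250 bases, and the word starts 104 bases before each start. It was present in 3 of the 30 windows, the other being that of Jun, and in 6.69% of all windows. A longer word, in which that pair is followed by any 2 bases and a further GAA, was in 0 of the 30 windows and in 0.466% of all windows. The genes are near-identical copies, so probes may not tell their transcripts apart and the level of each is uncertain.

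The feedback genes Zfp36 and Dusp1 carry the words of the other signal pathways. Zfp36 encodes tristetraprolin, which marks cytokine mRNA for decay, and Dusp1 encodes a phosphatase that switches off MAP kinases. Their windows are chr7:28379229-28379378 and chr17:26508473-26508622, both on the minus strand. Capitals mark a CArG box in Zfp36 and the cyclic AMP response element TGACGTCA in Dusp1.
Zfp36: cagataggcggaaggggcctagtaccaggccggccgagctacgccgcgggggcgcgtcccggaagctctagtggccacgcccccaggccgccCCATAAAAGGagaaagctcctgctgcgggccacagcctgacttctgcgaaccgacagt
Dusp1: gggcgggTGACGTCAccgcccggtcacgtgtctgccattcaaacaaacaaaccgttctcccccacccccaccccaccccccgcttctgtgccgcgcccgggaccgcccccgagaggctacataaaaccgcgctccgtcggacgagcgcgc
A CArG box was in 1 of the 30 windows and in 1.47% of all windows. TGACGTCA was in 2 of the 30, those of Dusp1 and Btg2, and in 1.55% of all windows. The word TATAAA was in 7 of the 30 windows and in 12.4% of all windows, and an AP-1 site was in 3 of the 30 and in 4.46% of all windows. A word that matches is a description of the sequence, and no binding was measured here.

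Levels of the 39 genes ranged widely. Zfp36 was the highest, with a mean of 12.13 over 12 arrays, followed by Fos at 10.66 and Dusp1 at 10.62. Cxcl3 was the lowest, with Il6 next at 2.52 and Il1a at 3.01. The mean was above the median of all genes, 4.24, for 34 of the 39. Cxcl1 (3.89 to 4.43), Il1a (2.76 to 3.19), Il6 (2.21 to 2.82), Cxcl3 (1.74 to 2.32) and Nr4a3 (3.25 to 4.63) had means below it. These levels are not per length and depend on each gene's probes, so their order between genes is only approximate. In these bulk samples, fewer cells of a type and less RNA per cell cannot be told apart.

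TRIM33 replicate 1 and WT replicate 4, the only Y-set arrays that were not mixes, stood above the others for many of the 39 genes. Averaged over the 39 genes, WT replicate 4 read 8.00 and TRIM33 replicate 1 read 7.67, while the mixes read 6.64 to 7.09 and the Xist set 6.47 to 6.79. WT replicate 4 was the highest Y-set array at 17 of the 39 genes, or 43.6% (19.8% of all genes), and TRIM33 replicate 1 at 15, or 38.5% (17.2% of all genes). Both of them lay above all 4 mixes at 20 of the 39 genes, an order that 9.79% of all genes showed. The mixes lay above both of them at 0 of the 39 genes (10.6% of all genes).

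**Figure D1:**
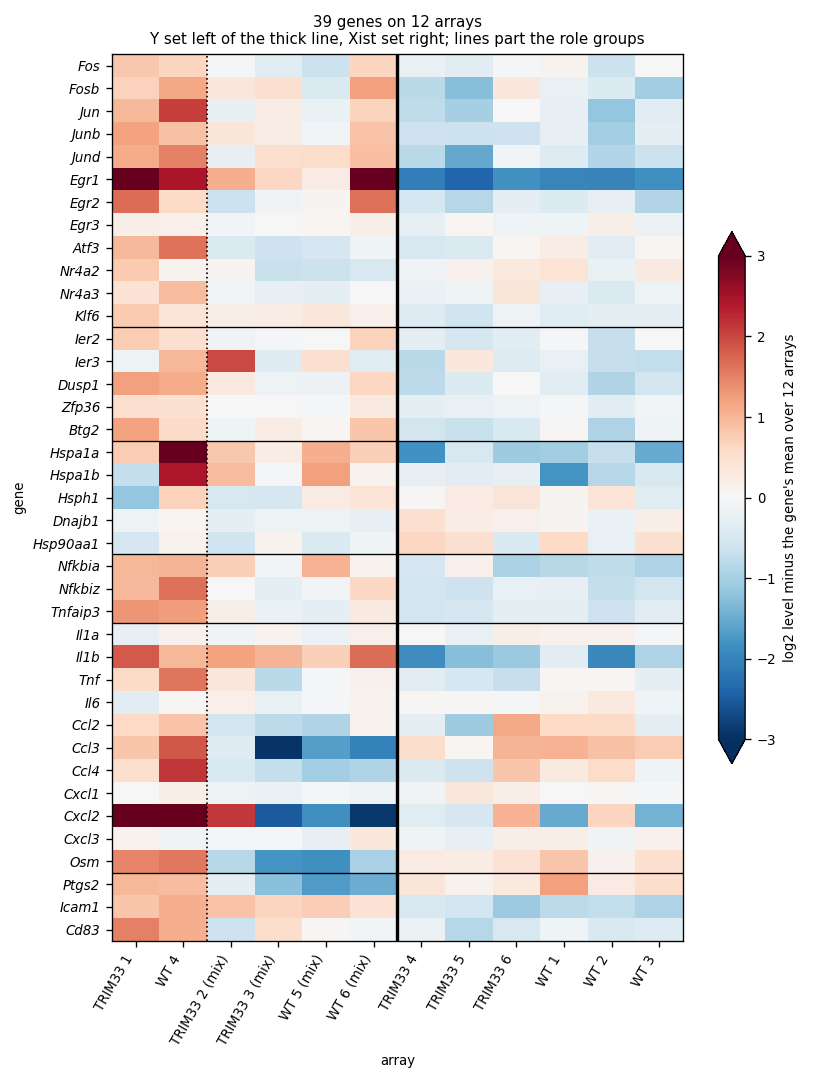
Log2 level of each of the 39 genes minus that gene's mean over the 12 arrays (colour, limited to 3 units either way), with 1 column per array and 1 line per gene. TRIM33 replicate 1 and WT replicate 4, in the first 2 columns, are red for most genes, and both lie above all 4 mixes at 20 of the 39.

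Blocked by array set, 9 of the 39 genes had an adjusted p below 0.05. All 9 were lower in the mixes than in the 2 other Y-set arrays: Osm, Atf3, Tnfaip3, Ccl3, Ptgs2, Nfkbiz, Ccl4, Cd83 and Tnf. None of the 39 was higher, nor at an unadjusted p below 0.05, where 5.86% of all genes were. In the same fit 0.67% of all genes passed the threshold, 0.344% as lower in the mixes and 0.326% as higher. The difference was below 0 for 35 of the 39 genes with a median of -0.82, against 50.6% of all genes with a median of -0.003. At an unadjusted p below 0.05, 24 of the 39 were lower, against 4.82% of all genes. Since the 39 were chosen with earlier results known, these shares describe them and do not test the group. Without the block, 3 of the 39 passed, Ccl3, Osm and Ptgs2, all lower in the mixes, where 1.41% of all genes passed (0.314% as lower). In that fit 19 of the 39 differences were below 0, against 53.2% of all genes. With the array set as a random block, 3 of the 39 passed, again Ccl3, Osm and Ptgs2, and 26 were below 0 with a median of -0.21. With the fixed block and no moderation of the variance, 2 passed, Atf3 and Osm. The unblocked fits without TRIM33 replicate 1 or without WT replicate 4 each also called 3 of the 39 higher in the mixes, Egr1, Icam1 and Il1b in the former and Hspa1a, Hspa1b and Icam1 in the latter. The blocked result rests on the 2 Y-set arrays that were not mixes: without WT replicate 4 only Osm still passed (-2.86, adjusted p = 0.0159), and without TRIM33 replicate 1 there were 5. Without WT replicate 5 there were also 5, and each other array left out gave 6 to 10. Fitted on the 6 Y-set arrays alone, the differences were the same but 0 genes of the whole array passed, while 21 of the 39 were lower at an unadjusted p below 0.05 (5.12% of all genes).

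Atf3, a stress-induced repressor of the CREB family, passed alone among the 12 transcription factors. It read 10.26 in TRIM33 replicate 1 and 10.90 in WT replicate 4. The 4 mixes read 8.85 and 8.66 (TRIM33) and 8.77 and 9.15 (WT), and the Xist set ranged from 8.79 over a median of 9.13 to 9.51. The 2 high arrays stood clear of all 10 others, and the mixes and the Xist set overlapped. Atf3 and the other genes that passed with the block were picked by the difference between those 2 arrays and the mixes. That those 2 arrays stand apart from the mixes is thus no further result for any of them. The mixes were lower by -1.72 with the block (SE 0.196, adjusted p = 0.00178) and differed by -0.63 without it (SE 0.341, adjusted p = 0.34). Without WT replicate 4 the blocked difference was -1.53 with an adjusted p of 0.0571, and Atf3 passed in the other 11 fits that leave out 1 array.

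All 12 transcription factors had a difference below 0 in the blocked fit, from -1.83 to -0.12 with a median of -0.86. Jun, the partner of Fos in AP-1, read 9.65 in TRIM33 replicate 1 and 10.73 in WT replicate 4, against 8.43 to 9.34 in the mixes and 7.50 to 8.69 in the Xist set. Its difference of -1.41 did not pass (SE 0.348, adjusted p = 0.0932). Fos read 11.48 and 11.31 in the same 2 arrays, but WT replicate 6, a mix, was as high at 11.31, and the other mixes read 10.02 to 10.61. The difference of Fos was -0.82 (SE 0.285, adjusted p = 0.267).

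Egr1, a zinc finger factor of the serum response, had the widest set difference of the 39. It read 10.97 in TRIM33 replicate 1 and 9.41 in WT replicate 4, then 10.60 in WT replicate 6, 8.04 and 7.58 in the TRIM33 mixes and 7.21 in WT replicate 5. In the Xist set it ranged only from 4.58 over 4.96 to 5.13, below every Y-set array. The mixes therefore stood between the Xist set and the 2 other Y-set arrays, except for WT replicate 6. The blocked difference was -1.83 (SE 0.685, adjusted p = 0.319), and without WT replicate 6 it was -2.64 and passed (adjusted p = 0.00455). Egr2, a relative of Egr1, read 6.51 in TRIM33 replicate 1 and 6.48 in WT replicate 6 and 3.94 to 5.40 elsewhere. Egr3, also of that family, varied little, from 4.43 to 4.86.

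Of the other AP-1 genes, Fosb ranged from 6.01 to 7.68 in the Y set and from 5.16 to 6.78 in the Xist set. Junb ranged from 9.45 to 10.74 in the Y set and from 8.52 to 9.27 in the Xist set, which did not overlap. Jund, whose protein is a more steadily expressed AP-1 partner, read 6.76 to 8.50 and 5.47 to 6.92. Klf6, a Krüppel-like factor, read 9.11 to 9.76 in the Y set and 8.37 to 8.81 in the Xist set, again without overlap. Among the orphan nuclear receptors, Nr4a2 spanned 4.11 to 5.57 in the Y set and 4.58 to 5.17 in the Xist set. Nr4a3 reached 4.63 in WT replicate 4 and 4.10 in TRIM33 replicate 1, and the 4 mixes read 3.40 to 3.67. Its blocked difference was -0.84 (SE 0.199, adjusted p = 0.0799), and that of Nr4a2 was -0.88 (SE 0.23, adjusted p = 0.118).

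None of the 5 feedback genes passed. All 5 differences were below 0 with the block, but that of Ier3 was close to none (-0.0044, SE 0.541). Dusp1 read 11.86 and 11.73 in TRIM33 replicate 1 and WT replicate 4, 10.43 to 11.23 in the mixes and 9.72 to 10.64 in the Xist set. Its blocked difference was -1.03 (SE 0.253, adjusted p = 0.0901). Zfp36 read 12.61 and 12.59 in the same 2 arrays, 12.07 to 12.39 in the mixes and 11.78 to 12.07 in the Xist set, a narrow range at the top of the scale, and differed by -0.43 (SE 0.128, adjusted p = 0.185). Btg2, an antiproliferative gene, differed by -0.64 and ranged from 8.85 to 10.98. Ier2 differed by -0.50 and ranged from 8.41 to 9.87. Ier3 had its highest value in a mix, 9.43 in TRIM33 replicate 2, and read 6.66 to 8.46 in the other arrays.

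**Figure D2:**
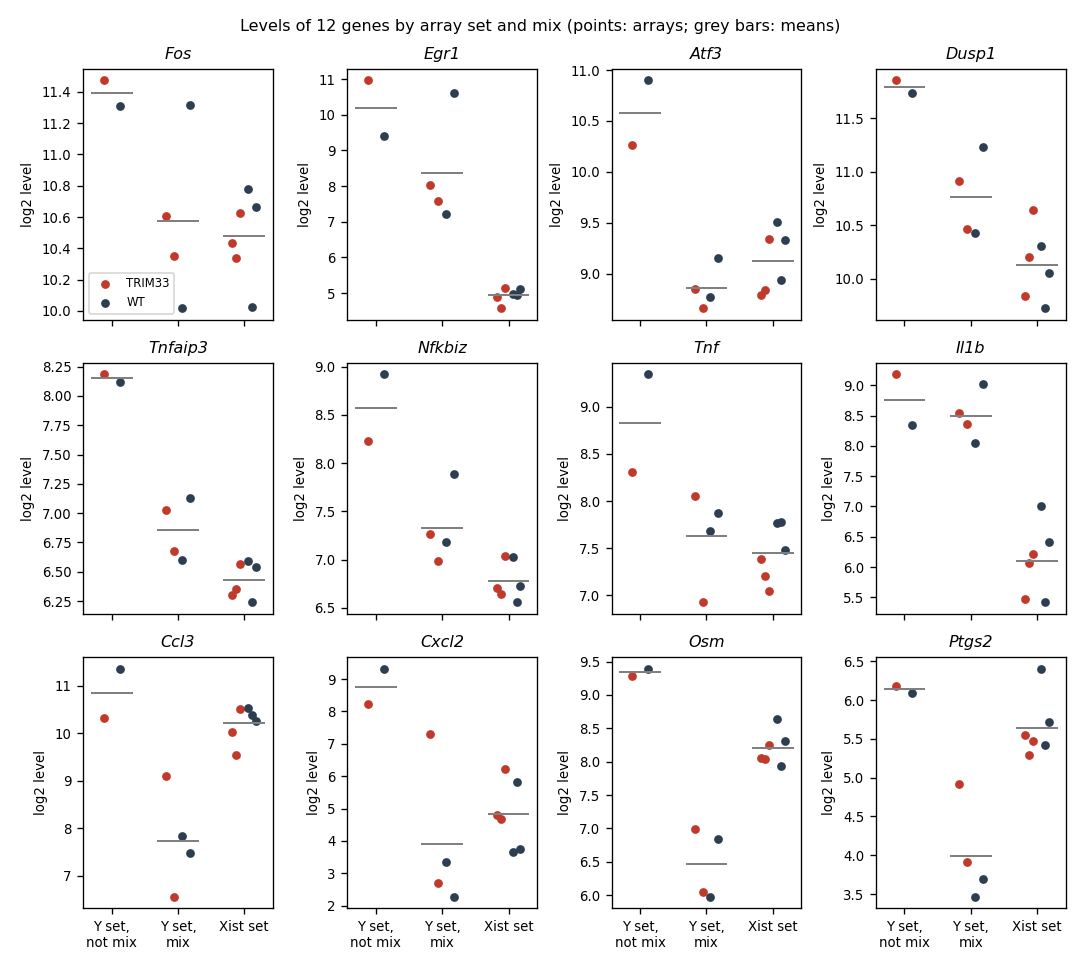
Log2 levels of 12 of the genes, 1 panel per gene, in the 2 Y-set arrays that were not mixes, the 4 mixes and the 6 Xist-set arrays; points are arrays coloured by genotype and grey bars are means. For Osm, Ccl3 and Ptgs2 the mixes lie below both other groups, while for Egr1 and Il1b the Xist set is lowest.

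Among the 3 genes that restrain or tune NF-kB, Tnfaip3 and Nfkbiz were lower in the mixes than in the 2 other Y-set arrays. Tnfaip3, which encodes the ubiquitin-editing protein A20, read 8.18 in TRIM33 replicate 1 and 8.12 in WT replicate 4. The mixes read 7.03 and 6.67 (TRIM33) and 6.60 and 7.13 (WT), and the Xist set 6.24 over 6.45 to 6.59. The 3 groups of arrays formed steps without overlap, the Xist set being lowest. The blocked difference was -1.30 (SE 0.167, adjusted p = 0.00312). Without the block it was -0.01 (SE 0.385), since the mixes then stand against 6 lower and 2 higher arrays. Leaving out WT replicate 4 gave -1.34 with an adjusted p of 0.0608, and leaving out each other array kept the call.

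Nfkbiz, which encodes the nuclear NF-kB cofactor IkB-zeta, read 8.23 in TRIM33 replicate 1 and 8.92 in WT replicate 4. The mixes read 7.27 and 6.99 (TRIM33) and 7.19 and 7.89 (WT), and the Xist set 6.56 over 6.72 to 7.04. The 2 arrays that were not mixes were again highest, and the mixes and the Xist set overlapped. The blocked difference was -1.24 (SE 0.224, adjusted p = 0.0218), and without the block it was 0.10 (SE 0.415). The call held in 8 of the 12 fits without 1 array and was lost without TRIM33 replicate 1 (adjusted p = 0.0519), TRIM33 replicate 3 (0.0603), WT replicate 4 (-0.97, 0.282) or WT replicate 5 (0.0577). Nfkbia read 8.96 to 10.10 in the Y set and 8.10 to 9.21 in the Xist set, with its highest value in a mix, WT replicate 5. Its blocked difference of -0.56 did not pass (SE 0.322, adjusted p = 0.599).

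The cytokine and chemokine genes held the largest differences, and 4 of the 11 passed with the block, all lower in the mixes. Osm, a cytokine of the interleukin 6 family, read 9.28 in TRIM33 replicate 1 and 9.40 in WT replicate 4. The mixes read 6.98 and 6.04 (TRIM33) and 5.98 and 6.84 (WT), and the Xist set 7.93 over 8.15 to 8.64. Here the mixes lay below all 8 other arrays. Osm was lower by -2.88 with the block (SE 0.271, adjusted p = 0.00126) and by -2.03 without it (SE 0.312, adjusted p = 0.0171). It passed in all 12 blocked fits that leave out 1 array, with differences of -3.09 to -2.68. Without the block it was lost without TRIM33 replicate 3 (adjusted p = 0.0824) or WT replicate 5 (0.0727).

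Ccl3, which encodes the chemokine MIP-1-alpha, read 10.33 in TRIM33 replicate 1 and 11.37 in WT replicate 4. The mixes read 9.10 and 6.56 (TRIM33) and 7.84 and 7.47 (WT), and the Xist set 9.55 over 10.32 to 10.54. All 4 mixes were again below the 8 other arrays, by little for TRIM33 replicate 2 and by a wide margin for the rest. Ccl3 was lower by -3.10 with the block (SE 0.496, adjusted p = 0.013) and by -2.63 without it (SE 0.39, adjusted p = 0.0165). The blocked call was lost without WT replicate 4 (-2.66, adjusted p = 0.19). The other call was lost without TRIM33 replicate 3 (adjusted p = 0.0649), WT replicate 5 (0.0727) or WT replicate 6 (0.0647).

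Ccl4, which encodes MIP-1-beta and whose annotated span overlaps that of Ccl3 on chromosome 11, read 7.12 in TRIM33 replicate 1 and 8.79 in WT replicate 4. The mixes read 6.15 and 5.91 (TRIM33) and 5.62 and 5.73 (WT), and the Xist set 6.00 over 6.70 to 7.46. The blocked difference was -2.10 (SE 0.411, adjusted p = 0.0337). It was least without WT replicate 4 (-1.28, adjusted p = 0.406) and passed in 6 of 12 fits without 1 array, failing also without TRIM33 replicates 3 or 4 or WT replicates 1, 5 or 6. Tnf, the tumour necrosis factor gene, read 8.31 and 9.34 in the 2 arrays, 8.05 and 6.93 in the TRIM33 mixes and 7.69 and 7.87 in the WT mixes. Its Xist-set levels ran from 7.05 over 7.43 to 7.78. The blocked difference of -1.19 (SE 0.25) only just passed, at an adjusted p of 0.0494, and in fits without 1 array it passed only without TRIM33 replicate 2 (-1.44, adjusted p = 0.00224).

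Cxcl2, a chemokine that draws neutrophils, ranged from 2.28 to 9.32. It read 8.22 in TRIM33 replicate 1 and 9.32 in WT replicate 4, and the mixes read 7.29 and 2.68 (TRIM33) and 3.33 and 2.28 (WT). The Xist set ran from 3.66 over 4.74 to 6.23. The mix TRIM33 replicate 2 thus stood above the Xist set and the other 3 mixes below it. The lowest 2 mixes lay below 3.09, the lower quartile of all gene means, where array values are compressed, so the size of the difference is uncertain. The fitted difference of -4.87 did not pass (SE 1.03, adjusted p = 0.0507), and without TRIM33 replicate 2 it was -5.97 (adjusted p = 0.00133). Its neighbours with the same NF-kB word varied little over the 12 arrays, from 3.89 to 4.43 for Cxcl1 and from 1.74 to 2.32 for Cxcl3, with differences of -0.22 and 0.01. Il1a and Il6, interleukin genes with means below the lower quartile of all genes (3.09), differed by 0.05 and 0.13.

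The other cytokine genes did not pass. Il1b, the interleukin 1-beta gene, followed the sets: it read 8.05 to 9.18 in the Y set and 5.42 over 6.14 to 7.01 in the Xist set, without overlap, and its blocked difference was -0.27 (SE 0.394, adjusted p = 0.894). Ccl2, the chemokine for monocytes themselves, read 8.94 and 9.19 in the 2 arrays, 7.44 to 8.45 in the mixes and 7.27 to 9.49 in the Xist set, with a difference of -1.25 (SE 0.454, adjusted p = 0.301).

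Both the enzyme gene Ptgs2 and the surface protein gene Cd83 were lower in the mixes with the block. Ptgs2, which encodes the inducible prostaglandin synthase COX-2, read 6.18 in TRIM33 replicate 1 and 6.10 in WT replicate 4. The mixes read 4.91 and 3.91 (TRIM33) and 3.47 and 3.69 (WT), and the Xist set 5.29 over 5.51 to 6.41. The mixes were below all 8 other arrays. The difference was -2.14 with the block (SE 0.346, adjusted p = 0.0141) and -1.77 without it (SE 0.275, adjusted p = 0.018). The blocked call was lost without TRIM33 replicate 1 (adjusted p = 0.103) or WT replicate 4 (0.135), and the other call without TRIM33 replicate 3 (0.0816), WT replicate 5 (0.0731) or WT replicate 6 (0.0657).

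Cd83, an activation marker of antigen-presenting cells, read 6.57 and 6.14 in the 2 arrays, 4.42 and 5.57 in the TRIM33 mixes, 5.09 and 4.97 in the WT mixes and 4.20 over 4.63 to 4.92 in the Xist set. Its difference was -1.35 with the block (SE 0.265, adjusted p = 0.0347) and -0.05 without it (SE 0.414). The blocked call held in 6 of 12 fits without 1 array, and was lost without TRIM33 replicate 1 (-1.07, adjusted p = 0.32), WT replicate 4 (-1.62, 0.122), TRIM33 replicate 4 or WT replicates 3, 5 or 6. Icam1, an adhesion molecule, followed the sets, with 7.27 to 7.94 in the Y set and 5.75 to 6.36 in the Xist set, and differed by -0.29 between the mixes and the other arrays with the block.

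Of the 5 heat shock genes none passed, and 4 had a blocked difference below 0. Hspa1a read 9.40 in WT replicate 4 and 7.15 in TRIM33 replicate 1, 6.60 to 7.47 in the mixes and 4.55 over 5.32 to 5.90 in the Xist set. TRIM33 replicate 1 was thus within the range of the mixes here, and only WT replicate 4 stood above them. Its blocked difference was -1.19 (SE 0.441, adjusted p = 0.315). Hspa1b read 7.66 in WT replicate 4 and 4.50 in TRIM33 replicate 1, the lowest of the Y set, and 5.16 to 6.46 in the mixes. The co-chaperone gene Dnajb1 varied from 6.76 to 7.51, and Hsp90aa1, a chaperone gene, from 3.87 to 5.09, with blocked differences of -0.16 and -0.07. Hsph1, which encodes the HSP110 exchange factor, differed by 0.15.

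**Figure D3:**
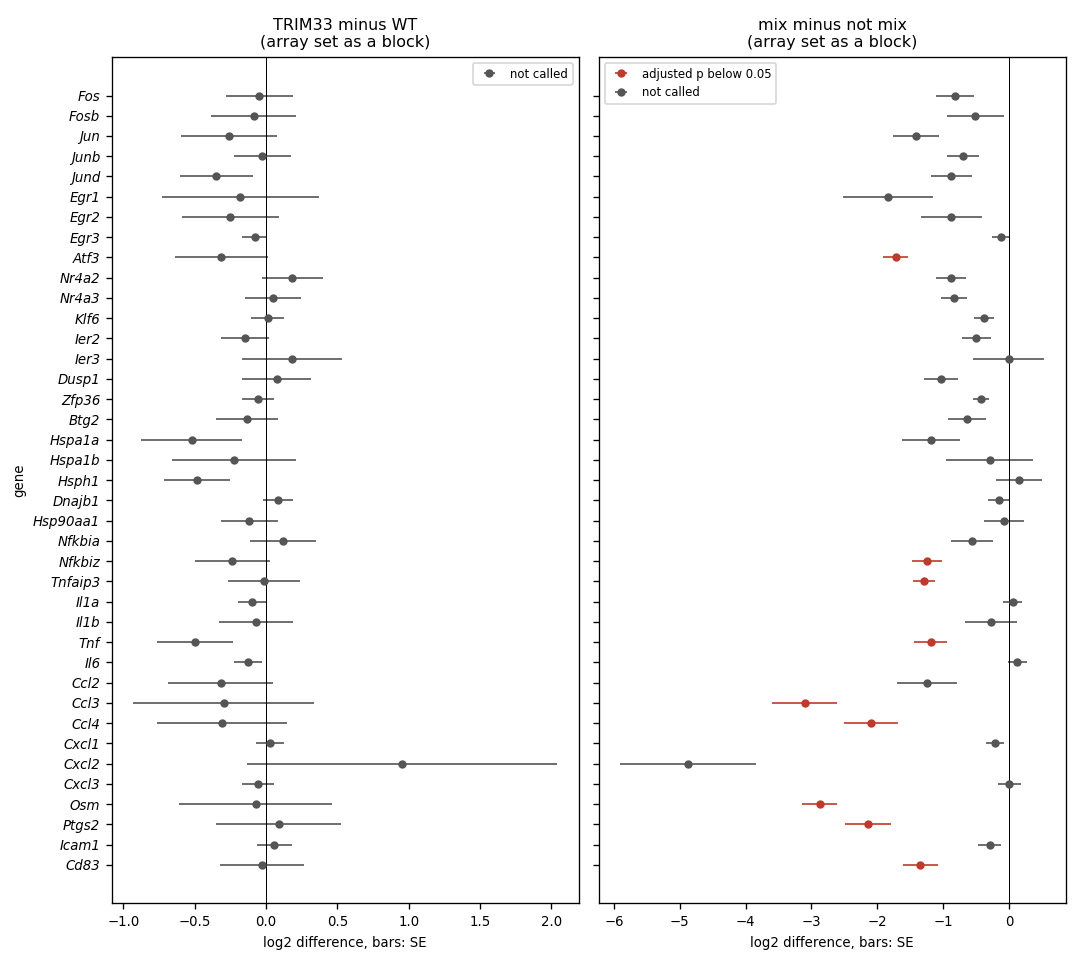
Log2 differences of the 39 genes with SE bars, both fitted over 12 arrays and blocked by array set. TRIM33 minus WT is on the left, and the mixes minus the 2 other Y-set arrays on the right. On the right 9 genes are marked as past an adjusted p of 0.05, all below 0, and on the left there are 0.

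Between the sets, described with no test because the sets were defined from the same data, the Y set was the higher one for many of the genes. All 6 Y-set arrays lay above all 6 Xist-set arrays at 8 of the 39 genes (6.59% of all genes): Junb, Egr1, Klf6, Zfp36, Hspa1a, Tnfaip3, Il1b and Icam1. The reverse order was found at 0 of the 39 (7.45% of all genes). The mixes alone lay above the Xist set at 9 of the 39 (8.85% of all genes) and below it at 3, Ccl3, Osm and Ptgs2 (8.67% of all genes). TRIM33 replicate 1 and WT replicate 4 lay above the whole Xist set at 24 of the 39 (13.8% of all genes) and below it at 0 (14.3% of all genes). Taking all 8 arrays that were not mixes, they lay above the 4 mixes at those same 3 genes, Ccl3, Osm and Ptgs2 (0.971% of all genes), and the mixes lay above all 8 at 0 (2.26% of all genes).

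Within the Xist set, where no array was a mix, the arrays also differed. TRIM33 replicate 6 was the highest of the set at 14 of the 39 genes, or 35.9% (15.1% of all genes), and WT replicate 1 at 12, or 30.8% (15% of all genes). WT replicate 2 was the lowest at 14 of the 39 (16.3% of all genes) and TRIM33 replicate 5 at 11 (16.7% of all genes). The spread was smaller than in the Y set, with averages over the 39 genes of 6.47 to 6.79.

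**Figure D4:**
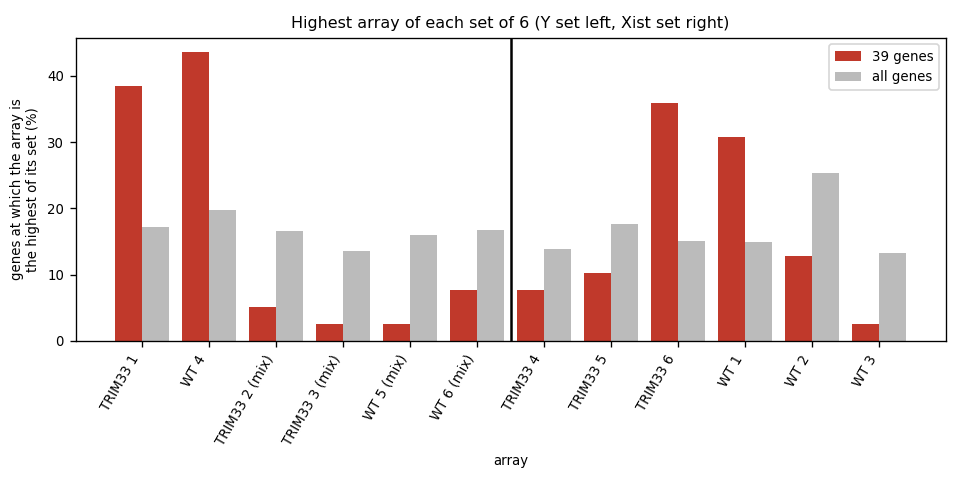
Share of genes (%) at which each array is the highest of its set of 6, for the 39 genes and for all genes, with the Y set left and the Xist set right. WT replicate 4 and TRIM33 replicate 1 hold 43.6% and 38.5% of the 39 genes, and TRIM33 replicate 6 and WT replicate 1 lead the Xist set.

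Genotype, the comparison of the series, moved none of the 39 genes past the threshold. Without a block, 0 of the 39 passed in limma, where 0.0215% of all genes did, and blocked by array set 0 passed, where 0.0387% did. At an unadjusted p below 0.05 there were also 0 in either fit, against 3.07% and 5.28% of all genes. TRIM33 was below WT for 28 of the 39, with a median of -0.08, against 55% of all genes with a median of -0.01. This tilt rested on single arrays: without WT replicate 4 it was 13 of the 39 with a median of 0.09, and without TRIM33 replicate 1 it was 34 with a median of -0.23. No gene of the 39 had all TRIM33 arrays on one side of all WT arrays, which 0.103% of all genes showed as higher and 0.0945% as lower.

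The 6 genes with the smallest unadjusted p for genotype are given as the nearest to a difference, with the SE and adjusted p of the blocked fit. Hsph1 ran from 5.65 over a median of 6.59 to 7.20 in TRIM33 and from 6.43 over 7.13 to 7.49 in WT, a difference of -0.48 (SE 0.231, adjusted p = 0.937). Tnf ran from 6.93 over 7.30 to 8.31 and from 7.48 over 7.77 to 9.34, a difference of -0.50 (SE 0.265, adjusted p = 0.937). Hspa1a ran from 4.55 over 6.25 to 7.20 and from 4.86 over 6.38 to 9.40, a difference of -0.52 (SE 0.355, adjusted p = 0.946). In all 3 the ranges of the genotypes overlapped. Jund ran from 5.47 over 6.84 to 8.10 and from 6.12 over 7.08 to 8.50, a difference of -0.35 (SE 0.256, adjusted p = 0.946). Il6 and Il1a, both dim, differed by -0.12 (SE 0.0989, adjusted p = 0.956) and -0.10 (SE 0.098, adjusted p = 0.964). Il6 ran from 2.21 over 2.51 to 2.67 in TRIM33 and from 2.39 over 2.60 to 2.82 in WT, and Il1a from 2.76 over 2.96 to 3.19 and from 2.84 over 3.13 to 3.16.

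The genes that were lower in the mixes with the block overlapped between genotypes. Both genotypes hold mixes and a Y-set array that was not a mix. Genes picked for that difference span it in each genotype, so their overlap says little about genotype. Osm ran from 6.04 over 8.04 to 9.28 in TRIM33 and from 5.98 over 8.12 to 9.40 in WT, a difference of -0.07 (SE 0.536, adjusted p = 0.996 with the block). Atf3 ran from 8.66 over 8.84 to 10.26 and from 8.77 over 9.24 to 10.90, a difference of -0.31 (SE 0.329, adjusted p = 0.964). Tnfaip3 ran from 6.30 over 6.62 to 8.18 and from 6.24 over 6.60 to 8.12, a difference of -0.02 (SE 0.252, adjusted p = 0.998). Within each genotype the range of these genes was wider than the difference of the genotype means, which the same selection makes likely. Ccl3 ran from 6.56 over 9.79 to 10.51 and from 7.47 over 10.32 to 11.37, a difference of -0.30 (SE 0.634, adjusted p = 0.984). Ptgs2 ran from 3.91 over 5.38 to 6.18 and from 3.47 over 5.57 to 6.41, a difference of 0.09 (SE 0.439, adjusted p = 0.995). Nfkbiz ran from 6.64 over 7.02 to 8.23 and from 6.56 over 7.11 to 8.92, a difference of -0.24 (SE 0.263, adjusted p = 0.964). The largest genotype difference of the 39 in size was that of Cxcl2, 0.95, with an SE of 1.09.

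Whether the genotype difference changed with the array set was tested by an interaction term, and 0 of the 39 passed (0.0043% of all genes). At an unadjusted p below 0.05 there were 2 of the 39, a share near that of all genes (4.21%). Both were heat shock genes and are described here without a call. For Hsph1 the term was 1.35 (SE 0.308, adjusted p = 0.996). All 3 WT arrays of the Y set lay above all 3 TRIM33 arrays, an order that 5.43% of all genes showed (0 of the 39 had the reverse order, 4.61% of all genes), with a difference of -1.16 there and 0.19 in the Xist set. For Hspa1b the term was 1.97 (SE 0.724, adjusted p = 0.996), with -1.21 in the Y set, where WT replicate 4 was the highest array, and 0.76 in the Xist set, where no TRIM33 array was as low as any WT array (4.41% of all genes). For Tnf the 3 WT arrays of the Xist set lay above the 3 TRIM33 arrays (5.86% of all genes), with -0.46 there and -0.54 in the Y set.

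Other genes of the same pathways were taken from 5 lists of 107 names, of which 98 were measured. For genotype 0 of the 98 passed, without and with the block. With the block, 6 of the 98 passed, all lower in the mixes than in the 2 other Y-set arrays (0.344% of all genes). Of the 98, 72 were below 0 with a median of -0.13, against 50.6% of all genes. Without the block 0 of the 98 passed. The immediate early list held 4 of the 6, among 24 measured genes of which 22 were below 0. They were Plk2, a polo-like kinase (-1.73, adjusted p = 0.00242), Ppp1r15a, the stress phosphatase subunit GADD34 (-1.53, adjusted p = 0.00364), Dusp2, a MAP kinase phosphatase, and Csrnp1, a nuclear factor. The list of early cytokines and inflammatory response held the other 2 among 29, the chemokine-binding receptor gene Ccrl2 (-2.47, adjusted p = 0.00411) and the phosphodiesterase gene Pde4b. The lists of upstream activators (11 measured), further heat shock genes (16) and NF-kB subunits and regulators (18) had 0, with 7, 10 and 11 below 0, shares not far from the 50.6% of all genes. Of them 1, 1 and 4 were lower at an unadjusted p below 0.05 (4.82% of all genes), and 0 were higher (5.86% of all genes). The share of the NF-kB list was thus above that of all genes. For all 6 genes TRIM33 replicate 1 and WT replicate 4 were the 2 highest arrays of the Y set. The 6 were picked by the difference between those 2 arrays and the mixes, so this order is no further result.

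Markers of other blood cells also differed between the mixes and the other Y-set arrays, and between the sets. Platelet markers (4 of 5 measured) averaged 5.27 to 5.94 in TRIM33 replicate 1 and WT replicate 4, 6.09 to 7.12 in the mixes and 3.88 to 4.08 in the Xist set. Red cell markers (2 of 5 measured) averaged 9.22 to 9.73, 10.34 to 11.01 and 2.78 to 3.59. With the block the platelet chemokine gene Ppbp (1.36, adjusted p = 0.0425) and Alas2, of haem synthesis in red cells (1.58, adjusted p = 0.01), were higher in the mixes. Neutrophil markers (13 of 13) averaged 4.98 to 5.14, 5.16 to 6.18 and 6.94 to 7.50, the highest value of the mixes being TRIM33 replicate 2. That list did not move as a whole: Mpo, Elane, Camp, Ngp, S100a8 and S100a9 were higher in the Xist set, while Csf3r was lower there (8.42 to 8.95, against 9.56 to 9.80) and Cxcr2 and Mmp9 overlapped between the sets. Markers of Ly6C-low monocytes (9 of 9) averaged 8.94 to 8.97, 8.21 to 8.94 and 7.10 to 7.46, and those of Ly6C-high monocytes (8 of 9) 10.79 to 10.88, 10.95 to 11.22 and 10.31 to 10.54. The Ly6C-low list holds Nr4a1, which is also on the immediate early list. Nr4a1 read 11.72 in TRIM33 replicate 1, 11.34 in WT replicate 4 and 9.86 to 10.85 in the mixes. Its blocked difference was -1.38 (adjusted p = 0.0593). The Ly6C-low list did not move as a whole either: for Spn the mixes (8.23 to 8.76) lay below the Xist set (from 8.91). T cell markers (7 of 8) followed the same order as many of the 39 genes, with averages of 4.51 to 4.57, 3.91 to 4.47 and 3.46 to 3.68, and 5 of them had means below the median of all genes. With the block all 7 were below 0, 0 passed, and Cd3d differed by -0.68 (adjusted p = 0.147). Natural killer cell markers (6 of 6) averaged 3.93 to 4.15, 3.96 to 4.22 and 3.55 to 4.04. B cell markers (5 of 6) averaged 4.30 to 4.48, 4.41 to 4.98 and 4.01 to 4.27, and dendritic cell markers (6 of 6) 4.80 to 5.20, 4.72 to 5.30 and 4.31 to 4.85. Of these 3 lists 4, 3 and 2 genes had means below the median of all genes. The part of these cells in the differences between the mixes and the other arrays was not tested.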

How the data were processed

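The data are RNA levels from 12 single-colour expression arrays of Ly6C-high blood monocytes. Amplification with the NuGEN Ovation Pico V2 protocol started from 900 pg of total RNA, per the labels' protocols. Source names and the design give monocytes and were followed, although a treatment text in the labels speaks of sorted CD4 T cells. The deposited values are log2 levels that the authors made with RMA and Partek, per the submitters' processing notes; their versions and the chip definition are not stated there. RMA gives the arrays near-equal distributions, so that a change common to most genes would not be seen. Array medians were 4.16 to 4.25. The number of arrays limits the precision.

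Of 24479 features, 23281 carried 1 symbol, 0 several and 1198 none, and 2 duplicates with the lower mean were dropped, which left 23279 genes. Entrez numbers of 23156 were found in a RefSeq table (GRCm38.p6), and 0 symbols changed. Array sets came from average-linkage clustering of 1 minus Pearson r over all features (r 0.986 to 0.992 within the sets, 0.955 to 0.967 between). Genotype was fitted with no covariate, mix in the title or not with genotype as a covariate, and both again blocked by array set, in limma 3.58.1 (R 4.3.3; lmFit and eBayes), with Benjamini-Hochberg adjustment over all genes and a threshold of 0.05. Adjusted p-values are limma's throughout. The fits were tested first on simulated data with 200 changed genes. For mix or not, the fit without the block made 122 false calls, against 14 with the block. Of changes of 1 unit they recovered 86% and 88%, and of changes of 0.5 they recovered 46% and 22%. The genotype fits made 3 false calls without the block and 7 with it. Calls for mix or not without the block are therefore less certain. The 14 false calls with the block hold for the simulated arrays only. In the data, the Y-set arrays that were not mixes were high together for many of the listed genes. How many false blocked calls such a shared shift would give was not tested.

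The 39 genes and the lists were chosen with earlier results of these data known. Named in full were the genes past the threshold for genotype or, with under 6, the 6 with the smallest unadjusted p in the blocked genotype fit, and likewise 6 for mix or not. Each of the 39 is given a value. Of the pathway and marker lists, up to 3 genes past the threshold were named per list; the list of immediate early genes had 4, and the last was named after its value was seen. Alternatives were other scalings, filters, variance models, weights, blocks and subsets, and fits without single arrays. Blocked fits of mix or not under 4 other settings were added after the data were seen.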

Additional observations from a re-analysis of the deposited data

Results flagged for a closer look

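In 9 of 156 gene and group combinations (the 39 genes within TRIM33, WT, the mixes and the other 8 arrays), the highest or lowest array stood further from the rest than Dixon's 95% critical value allows. For independent groups, each from 1 normal population, chance would give about 1 in 20, or 7.8 of 156. Here the groups share arrays, most hold both sets, and single arrays were high for many of the genes. The number can therefore not be judged against chance. In WT, replicate 4 stood apart as the highest array for Atf3 at 10.9, Tnf at 9.34, Nr4a3 at 4.63 and Cd83 at 6.14. Among the 8 arrays that were not mixes it was also apart for Hspa1b at 7.66. In TRIM33, replicate 1 was the highest for Fos at 11.5 and for Egr2 at 6.51, and replicate 3 the lowest for Ccl3 at 6.56. Among the 4 mixes, WT replicate 6 was the highest for Ier2 at 9.80. These 9 values fall on 4 arrays, 5 of them on WT replicate 4.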

How the results depend on the processing

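For genotype, 0 of the 39 genes passed under every alternative run. Over all genes 5 passed, against 3 with no moderation, 9 with the block, 0 in the arrays that were not mixes (9 of them with the block), 8 in the Y set, 3 in the Xist set, and 5 to 15 with an array left out. The 28 genes with TRIM33 below WT became 13 to 34 with an array left out. Trim33 kept its direction and missed the threshold in the subsets, with -0.77 outside the mixes and -0.79 in either set. Hsph1 reversed to 0.19 in the Xist set, and Hspa1a ran from -0.88 to 0.029 with an array left out. The interaction called 1 gene, or 0 to 2 with an array left out. The mix number as a replicate block gave 6 genes and 0 of the 39. Mixes of the same number deviated together with r = 0.118 over 2 pairs, and the labels share only a number.

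For mixes against the other arrays, the 329 genes called became 575 with centred arrays, 665 among genes above the median, 39 with no moderation, 4266 with array weights, 571 with no genotype term, 156 with the block, 18 with a random block and 0 in the Y set. With the block they were 169 with a trended robust variance, 26 with no moderation and 206 centred. With an array left out they were 1 to 2961, and 19 to 174 with the block. The 3 of the 39 that passed became 0 with no moderation, 11 with array weights (5 of them higher in the mixes: Egr1, Hspa1a, Icam1, Il1b and Klf6), 9 with the block, 3 with a random block and 0 in the Y set. With the block they were 8 with a trended variance, 10 above the median, 10 centred and 2 with no moderation. With an array left out they were 0 to 8, and 1 to 10 with the block. The 19 below 0 became 35 with the block, in the Y set, and with the block under a trended variance or no moderation, 33 above the median, 34 centred, and 15 to 37 with an array left out. Tnfaip3, at -0.0052 without a block, reversed to 0.022 after a further quantile normalization, 0.031 centred and 0.21 with array weights. With an array left out it ran from -0.11 to 0.20, and from -1.39 to -1.20 with the block. Nfkbiz, at 0.10, reversed to -1.24 with the block, under its trended, filtered and unmoderated forms and in the Y set, to -1.19 centred with the block and to -0.52 with the random block. With an array left out it ran from -0.063 to 0.35, and from -1.51 to -0.97 with the block. Tnf reversed to 0.027 with array weights and ran from -0.41 to 0.050 (-1.51 to -0.87 with the block), and Cd83 to 0.21 and from -0.27 to 0.19 (-1.62 to -1.07). Without TRIM33 replicate 1 or WT replicate 4 a single Y-set array is left that was not a mix, and it is assumed to vary like the others. The cause of these changes was not tested.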
